A study of Mus musculus with 36 samples.

Results

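The genes described here are 39 genes of DNA replication and S phase, taken by gene symbol from the 53421 genes of the count table and followed over all 12 conditions of the study. They comprise the origin licensing genes *Orc1*, *Orc6*, *Cdc6* and *Cdt1*, the 6 subunits of the replicative helicase core (*Mcm2* to *Mcm7*), the helicase activation genes *Mcm10*, *Cdc45*, *Gins1*, *Gins2* and *Gins3*, and the polymerase and primase genes *Pola1*, *Pola2*, *Prim1*, *Prim2*, *Pold1*, *Pole* and *Pole2*. The remaining genes belong to the sliding clamp, its loader and the fork (*Pcna*, *Rfc2*, *Rfc3*, *Rfc4*, *Rfc5*, *Rpa2*, *Fen1* and *Lig1*), to nucleotide supply (*Rrm1*, *Rrm2*, *Tyms* and *Tk1*), to G1/S control (*E2f1*, *Ccne1* and *Ccne2*) and to replication-coupled chromatin (*Uhrf1* and *Chaf1a*). All 39 symbols were found once in the counts and once in the TPM values, and all 39 genes passed the filter on low counts in every comparison. The rule uses gene names and no measured value, although the members were chosen with earlier results of these data known.

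Replication origins are licensed in G1, when the origin recognition complex, CDC6 and CDT1 load the MCM2-7 ring onto DNA. In S phase the ring is switched on by CDC45, the GINS complex and MCM10, and polymerases, the PCNA clamp and a supply of deoxynucleotides then copy the DNA. Transcription of many of these genes is periodic, being held down by RB-family proteins in resting cells and released with E2F factors at G1/S, while genes of mitosis peak later through other promoter elements. In cartilage most chondrocytes rarely divide.

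The samples were a conditionally immortalised mouse chondrocyte line that its labels call fibroblastic. For experiments, per the methods, cells were released from immortalisation by culture without the interferon-γ that induces it. Cells were transfected below confluence with a pool of non-targeting siRNA (NT) or a pool of siRNA against *Ift88* (IFT88siRNA). The siRNA dose was 50 nM per the labels and lower per the methods. *Ift88* encodes a subunit of the intraflagellar transport complex that builds cilia. After further culture the cells were left without IL-1β (0 h) or given IL-1β, an inflammatory cytokine, at 10 ng/ml for 1, 2, 4, 8 or 24 h. The methods of the RNA sequencing do not give the density of the cells at that time. Each of the 12 conditions had 3 libraries of poly(A) RNA, 36 in all. All groups share 1 cell line and transfection with siRNA. The labels do not say whether replicates were separate cultures, so the p-values measure only the spread between these libraries, which may be technical. Both siRNA groups are pools of oligonucleotides, and there is no untransfected group among these libraries. Every time point was compared with a single 0 h group of the same siRNA, with no medium-only group at later times, so IL-1β and time in culture cannot be told apart.

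*Ift88* was at 5.83 to 10.2 CPM (reads of a gene scaled to library size) in the 18 NT libraries and at 1.43 to 3.10 CPM in the 18 IFT88siRNA libraries, with no overlap between the groups, and the mean difference over time was −1.77 ± 0.059 (log2, SE). Counts on genes per library were 19337022 to 38304127, and the IFT88siRNA libraries were the deeper (median 25873754 against 21672803.5 in NT). Of 12 chondrocyte genes in the TPM table, 5 stayed below 1 TPM in every library (*Acan*, *Col9a1*, *Col9a2*, *Matn1* and *Matn3*). The other 7 were present, with *Col11a1* highest (median 47.7 TPM), *Comp* at 16.1, *Sox9* at 11.6 and *Col2a1* at 3.15 TPM. Of 11 fibroblast genes, *Vim* and *Fn1* were highest (medians of 2290 and 1400 TPM) and *Pdgfra*, *Thy1* and *Lum* lowest (11.5, 11.1 and 1.56 TPM). Of 9 macrophage genes, *Ptprc*, *Adgre1*, *Csf1r*, *Itgam*, *Cx3cr1* and *Tyrobp* stayed below 1 TPM in every library, with *Tyrobp* listed at 0, whereas *Cd14*, *Cd68* and *Fcer1g* reached 41.3, 12.3 and 3.03 TPM. The macrophage list summed to 19.8 to 23.2 TPM at 0 h and 46.0 to 50.0 TPM at 24 h in NT, the chondrocyte list to 101 to 105 and 38.9 to 40.2 TPM and the fibroblast list to 4766 to 5090 and 3380 to 3750 TPM, and their part in the changes over time was not tested. The 6 endothelial genes had medians of at most 0.338 TPM.

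Upstream sequence was examined because this group of genes is known for E2F sites near the start of transcription. RefSeq start sites on GRCm38.p6 were available for 32 of the 39 genes (those of *Gins1*, *Gins2*, *Pole*, *Prim2*, *Mcm4*, *Rfc2* and *Ccne2* were not used here). In windows of 250 bases before to 50 bases after the start, 1 of the 8-letter E2F words TTTCGCGC, TTTGGCGC, TTTCCCGC or TTTGCCGC, read on either strand, was found in 14 of these 32 genes (43.8%), against 2.60% of the 27025 genes of the RefSeq table. The 14 were *Orc1*, *Cdc6*, *Cdt1*, *Mcm3*, *Mcm5*, *Mcm6*, *Mcm7*, *Gins3*, *Pola1*, *Pold1*, *Pole2*, *Rfc3*, *Lig1* and *Uhrf1*. With TTTCCCGC and TTTGGCGC alone, the shares were 34.4% and 1.80%. Any of the 4 words was found in 25.7% of 35 other replication factors and in 6.25% of 16 mitosis genes. The word TTTGAA, the core of the CHR element of mitosis genes, was found in 12.5% of the replication genes, in 20.2% of all genes and in 12 of 16 mitosis genes. CCAAT was found in 59.4% of the replication genes and in 41.1% of all genes. A word match is a description of the letters and does not show that a factor binds there.

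The 200 bases before the RefSeq start are printed for the genes on which the time course turns and, for comparison, for *Mcm5*, the 1 member that did not pass the adjusted p over time. They run 5′ to 3′ on the gene's own strand, with the E2F words in capitals, and overlapping words on opposite strands form 1 run of capitals. *Mcm6* is shown from chr1:128359706-128359905 (minus strand), *Mcm5* from chr8:75109309-75109508 (plus), *Gins3* from chr8:95633359-95633558 (plus), *Orc1* from chr4:108579254-108579453 (plus) and *Rrm2* from chr12:24708054-24708253 (plus).
Mcm6: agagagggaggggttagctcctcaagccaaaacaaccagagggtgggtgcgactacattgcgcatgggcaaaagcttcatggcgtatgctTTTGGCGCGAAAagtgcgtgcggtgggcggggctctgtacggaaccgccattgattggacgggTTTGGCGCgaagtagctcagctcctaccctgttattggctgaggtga
Mcm5: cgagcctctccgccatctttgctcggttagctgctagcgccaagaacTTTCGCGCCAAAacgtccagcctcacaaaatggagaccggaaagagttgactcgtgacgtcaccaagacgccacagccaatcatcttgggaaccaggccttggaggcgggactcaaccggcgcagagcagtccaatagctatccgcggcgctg
Gins3: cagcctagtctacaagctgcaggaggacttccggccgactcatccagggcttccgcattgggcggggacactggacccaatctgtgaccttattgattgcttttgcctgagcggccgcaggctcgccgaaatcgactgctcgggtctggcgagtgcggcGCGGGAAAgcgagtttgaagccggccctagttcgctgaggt
Orc1: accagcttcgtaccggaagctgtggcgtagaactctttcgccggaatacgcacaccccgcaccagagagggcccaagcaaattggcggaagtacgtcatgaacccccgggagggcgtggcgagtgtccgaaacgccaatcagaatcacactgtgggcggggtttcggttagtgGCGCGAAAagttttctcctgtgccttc
Rrm2: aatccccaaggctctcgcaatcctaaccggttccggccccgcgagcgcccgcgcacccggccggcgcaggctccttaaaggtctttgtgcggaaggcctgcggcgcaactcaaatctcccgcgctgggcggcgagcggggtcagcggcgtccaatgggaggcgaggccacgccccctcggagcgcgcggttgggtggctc
*Mcm6* has 3 words, starting 110, 106 and 47 bases before the start, and *Mcm5* has 2 that overlap, starting 153 and 149 bases before it. *Gins3* and *Orc1* have 1 word each, starting 41 and 27 bases before the start. The *Rrm2* window holds none of the 4 words. Genes with a word thus include 1 that rose by 2 h, 1 that fell by 1 h and 1 that peaked at 4 h, as given below, and *Mcm5*.

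At 0 h in NT the replication genes were abundantly expressed. Their median level was 107 TPM (a transcript abundance that accounts for length), at percentile 88.4 among the 15455 genes with at least 1 TPM. *Pcna*, the sliding clamp, was highest at 558 ± 8.33 TPM (SD, n = 3) and *Orc1*, the largest subunit of the origin recognition complex, was lowest at 18.8 ± 1.39 TPM. The 6 MCM subunits lay close together, from 157 ± 2.39 (*Mcm3*) to 252 ± 6.10 TPM (*Mcm7*), while the helicase activation genes spread from 22.2 ± 0.975 (*Gins1*) to 144 ± 3.15 TPM (*Gins2*). Both subunits of ribonucleotide reductase, the enzyme that makes deoxynucleotides, were near the helicase at 242 ± 7.72 (*Rrm1*) and 259 ± 4.36 TPM (*Rrm2*).

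**Figure D1:**
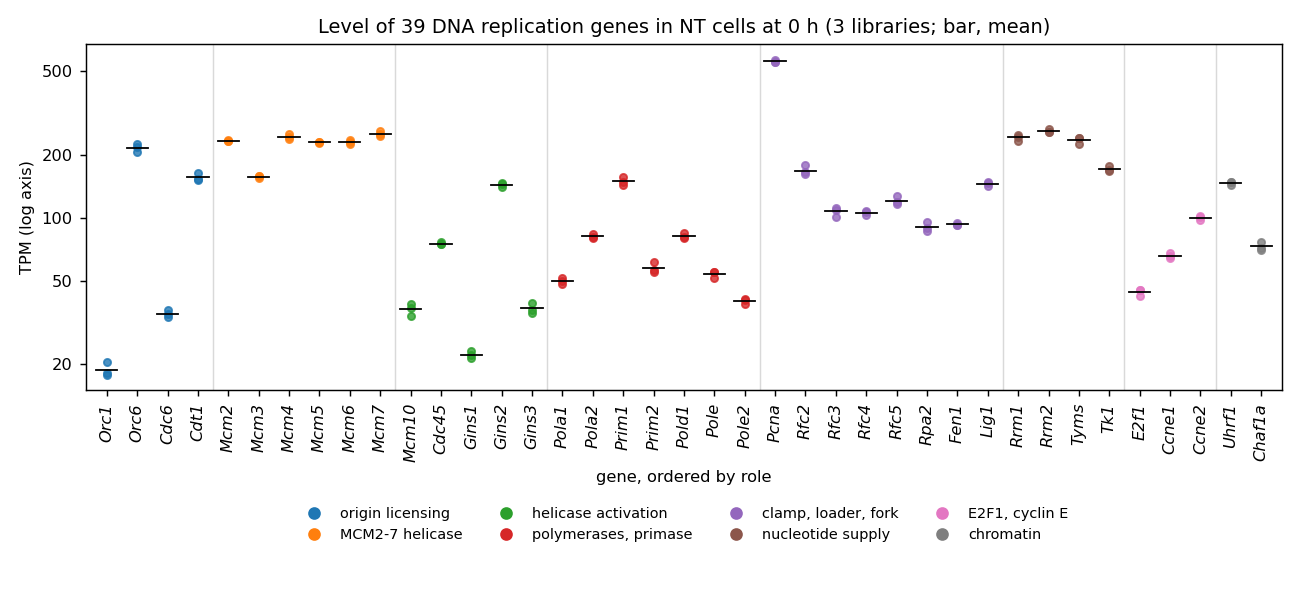
TPM (log axis) of each of the 39 genes at 0 h in NT, ordered and coloured by role, with points for the 3 libraries and a bar for their mean. *Pcna* stands highest at 558 TPM and *Orc1* lowest at 18.8 TPM, and the 6 MCM subunits sit between 157 and 252 TPM.

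Counts were taken without strand, so reads from overlapping genes on opposite strands cannot be told apart. Of the exonic length of *Fen1*, 84.2% is overlapped by *Tmem258* and *Gm10143*, and *Fen1* had a mean of only 12.1 CPM beside 84.5 TPM. *Gins2* is overlapped over 67.3% (by *Gse1*) and *Chaf1a* over 52.5% (by *Ubxn6*), and the counts of these 3 genes are uncertain for that reason. In all, 9 of the 39 genes were overlapped over more than 10% of their exonic length. Besides these 3 they were *Ccne2* (17.4%), *Rfc2*, *Rfc4*, *Mcm7*, *Orc1* (10.8%) and *Rfc5*. *Ccne2* and *Orc1* are among the genes called below.

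The first comparison asked how these genes moved with IL-1β in NT cells. The replication genes moved little, and different members moved at different times. Called changed means an adjusted p-value under 0.05 in edgeR's quasi-likelihood test with a fold over 1.5. By this rule 3 of 39 genes were called at 1 h, all lower (*Gins3*, *Ccne2* and *Rrm2*), beside 18.7% of all genes tested, and 2 at 2 h (*Gins3* lower and *Orc1* higher), beside 27.3%. At 4 h 1 gene, *Mcm6*, was called and was higher, beside 28.7% of all genes. At 8 and 24 h none was called by edgeR or by DESeq2, beside 19.7% and 16.3% of all genes. At these times 24 and 13 of the 39 genes had an unadjusted p under 0.05, beside 9186 and 8234 of all 16048 genes tested. With the 5 time points tested together, 5 of 39 were called (the 5 genes named), beside 50% of all genes.

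Most changes were past the adjusted p but below the fold. On adjusted p alone, 38 of the 39 genes changed over time (88.4% of all genes did). The exception was *Mcm5*, with changes of 0.03 to 0.11 (edgeR adjusted p = 0.195 over time), which passed at 4 h when that time was tested alone (adjusted p = 0.0241). Of all genes tested, 42.4% passed over time with their largest change upward and 46% with it downward. By time point, adjusted p alone took 20 genes at 1 h (background 51.7%), 29 at 2 h (60.9%), 29 at 4 h (60.9%), 23 at 8 h (52.4%) and 10 at 24 h (44.9%). The split was 8 higher and 12 lower at 1 h (26% and 25.8% of all genes), 11 and 18 at 2 h (30.7% and 30.2%), and 12 and 17 at 4 h (31.2% and 29.7%). It was 7 and 16 at 8 h (27.1% and 25.3%) and 7 and 3 at 24 h (21.7% and 23.2%). Between the lowest and the highest time point the median replication gene differed 1.33-fold in NT, beside 1.55-fold for the 9591 genes of at least 10 CPM.

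These changes are relative to the median of all genes, which TMM scaling of counts sets near 0. On TPM the median of all genes itself shifted by −0.15 (log2) at 1 h, −0.23 at both 2 and 4 h, −0.089 at 8 h and −0.11 at 24 h. On TPM 14 genes were called over time in place of 5, 13 of them lower and 1 higher, beside 44.6% of all genes. The lower were *Cdc6*, *Mcm10*, *Gins3*, *Pola1*, *Pold1*, *Prim1*, *Rfc2*, *Rpa2*, *Rrm2*, *Tk1*, *Ccne1*, *Ccne2* and *E2f1*, and the higher was *Mcm6*. Of the genes past the adjusted p, the sign was the opposite on TPM for 6 at 2 h (*Mcm2*, *Mcm3*, *Gins2*, *Prim2*, *Tyms* and *Lig1*) and for 7 at 4 h (*Mcm3*, *Mcm5*, *Mcm10*, *Pcna*, *Cdt1*, *Gins2* and *Fen1*), all of them higher under TMM. The largest change of a gene fell at another time on TPM for 16 of the 39 genes and had the opposite sign for 10 (*Cdc45*, *Cdt1*, *Gins2*, *Mcm2*, *Mcm3*, *Mcm4*, *Mcm5*, *Mcm10*, *Prim2* and *Rfc3*). Changes given below are under TMM unless TPM is named.

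**Figure D2:**
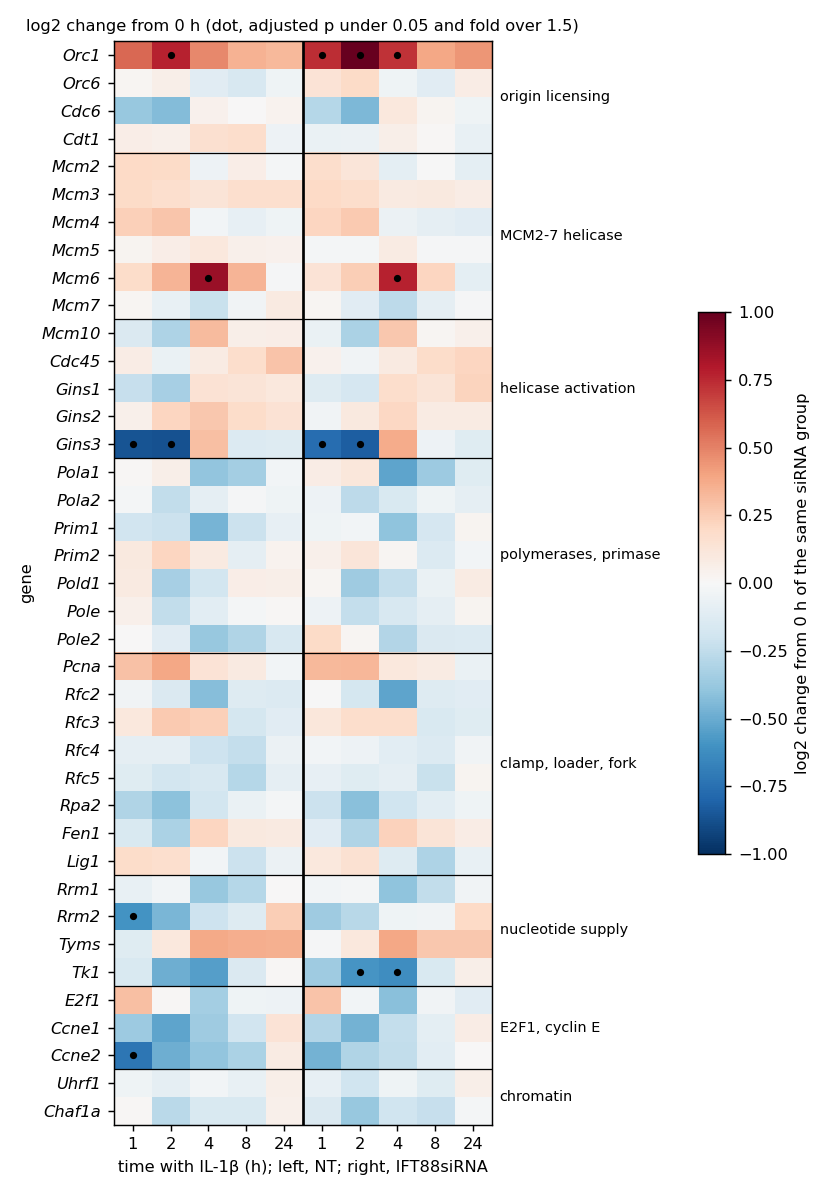
Log2 change from 0 h of the same siRNA group for the 39 genes (rows, by role) at each time with IL-1β (columns; NT left, IFT88siRNA right), with a dot where the adjusted p was under 0.05 and the fold over 1.5. Few cells carry a dot, and the columns of the 2 siRNA groups show similar colours. *Gins3* is blue at 1 and 2 h, *Orc1* is red throughout, and *Mcm6* is darkest red at 4 h.

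Among the licensing genes *Orc1* rose and *Cdc6*, which loads the helicase with it, fell for a time. *Orc1* (chr4:108579423-108614833) was at 23.2, 22.7 and 24.1 CPM at 0 h in NT, at 33.6, 35.2 and 35.7 CPM at 1 h and at 39.8, 39.7 and 40.4 CPM at 2 h. It was still at 27.7, 29.9 and 30.1 CPM at 24 h. All 15 NT libraries with IL-1β were above the 3 at 0 h. The change at 2 h was 0.77 ± 0.053 (log2, SE; edgeR adjusted p = 6.87e-12) and, on log2(TPM + 1), 0.57, which does not reach the fold. *Cdc6* fell by 0.38 at 1 h and by 0.43 at 2 h on the log2 scale (−0.61 on TPM at 2 h). From 4 h on *Cdc6* was within 0.04 of its 0 h level (−0.20 on TPM at 4 h). *Orc6*, the most abundant licensing gene, had libraries of 116, 121 and 123 CPM at 0 h and 105, 107 and 109 CPM at 8 h, a change of −0.16 ± 0.042 past the adjusted p only. *Cdt1*, the partner of *Cdc6* in loading, moved by 0.18 at most, at 8 h, and on TPM by −0.24 at most, at 2 h.

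Within the helicase *Mcm6* was the only subunit past the fold of 1.5. *Mcm6* (chr1:128331590-128359664) was at 358, 371 and 368 CPM at 0 h, rose to 459, 470 and 460 CPM at 2 h and to 681, 646 and 658 CPM at 4 h, and was back at 374, 377 and 336 CPM at 24 h. The 3 libraries at 4 h did not overlap with those of any other time point in NT. Its change at 4 h was 0.87 ± 0.043 (edgeR adjusted p = 7.99e-15) and its change at 24 h was −0.01. *Mcm7*, which also sits in the ring, fell at 4 h by 0.22, *Mcm2* and *Mcm4* were 0.20 and 0.24 higher at 1 h and −0.05 and −0.03 at 4 h (−0.33 and −0.27 on TPM), and *Mcm3* stayed between 0.13 and 0.19, although on TPM it was lower at 2 and 4 h (−0.13 and −0.15). On adjusted p over the 5 time points, 4 of the 6 MCM genes had their largest change upward and 1 (*Mcm7*) downward, beside 42.4% and 46% of all genes. On TPM the median of these 6 largest changes was −0.23, beside −0.43 for all genes.

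Among the genes that switch the helicase on, *Gins3*, a GINS subunit, had the largest fall of the 39 genes. *Gins3* (chr8:95633453-95645060) was at 42.1, 43.1 and 44.8 CPM at 0 h, at 24.6, 24.4 and 22.6 CPM at 1 h, at 25.5, 21.3 and 24.6 CPM at 2 h, and at 51.9, 52.9 and 54.4 CPM at 4 h. The libraries at 1 and 2 h lay below all others in NT and those at 4 h above all others. The changes were −0.86 ± 0.058 at 1 h (edgeR adjusted p = 7.32e-12) and −0.87 ± 0.058 at 2 h (2.92e-12). At 4 h the change was 0.30 under TMM and 0.063 on TPM. On TPM the libraries at 4 h (37.7, 39.1 and 38.9 TPM) overlapped with those at 0 h (35.2, 36.2 and 39.3 TPM). From 2 to 4 h *Gins3* rose by 1.17 ± 0.058 (8.32e-15), a step in which 27.1% of all genes were called. *Gins1*, from the same complex, fell by 0.23 at 1 h and 0.33 at 2 h. *Mcm10* fell by 0.14 and 0.31 (−0.63 on TPM at 2 h) and was then 0.31 higher at 4 h (−0.0025 on TPM). *Gins2* did not fall under TMM: its libraries were at 74.6, 74.4 and 76.4 CPM at 0 h and at 92.8, 86.4 and 91.4 CPM at 4 h, which do not overlap, a change of 0.27 ± 0.044 that was −0.0082 on TPM. *Cdc45*, which completes the active helicase, was 0.28 ± 0.037 higher at 24 h (0.17 on TPM). On TPM its largest change was −0.31, at 2 h (−0.067 under TMM).

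Of the 7 polymerase and primase genes, all passed the adjusted p over time and under TMM none reached the fold of 1.5. On TPM *Prim1* and *Pola1* at 4 h and *Pold1* at 2 h did, at −0.69, −0.61 and −0.71. The largest change was downward for 6, beside 46% of all genes, and upward for *Prim2* (0.21 at 2 h, and −0.036 on TPM), beside 42.4%. *Prim1*, the catalytic primase subunit and the most abundant of them, was at 125, 117 and 132 CPM at 0 h and at 90.3, 92.5 and 87.2 CPM at 4 h, without overlap, and fell by 0.46 ± 0.056 (edgeR adjusted p = 1.18e-07). *Pola1* and *Pole2* were also lowest at 4 h, with changes of −0.39 and −0.38, whereas *Pold1*, *Pole* and *Pola2* were lowest at 2 h, with changes of −0.34, −0.25 and −0.25. At 24 h only *Pole2* still passed the adjusted p, at −0.16.

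At the clamp and fork, 2 of 8 genes had their largest change upward (*Pcna* and *Rfc3*) and 6 downward, beside 42.4% and 46% of all genes. *Pcna* was at 330, 341 and 338 CPM at 0 h and at 424, 471 and 426 CPM at 2 h, without overlap, a rise of 0.38 ± 0.046 (edgeR adjusted p = 1.03e-07) that was 0.13 on TPM, and its change at 24 h was −0.03. The clamp loader subunits moved apart: *Rfc3* was 0.26 higher at 2 h (0.024 on TPM) and *Rfc2* 0.43 lower at 4 h (−0.65 on TPM). *Rfc4* and *Rfc5* were 0.24 and 0.28 lower at 8 h. *Rpa2*, of the protein that coats single-stranded DNA, fell by 0.41 at 2 h (−0.67 on TPM). *Lig1*, which joins Okazaki fragments, was 0.18 higher at 1 h (0.0025 on TPM) and 0.21 lower at 8 h. *Fen1*, with its uncertain counts, fell by 0.32 at 2 h.

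The nucleotide supply genes moved apart. *Rrm2* (chr12:24708241-24714146), the regulated subunit of ribonucleotide reductase, was at 271, 278 and 279 CPM at 0 h, at 185, 185 and 178 CPM at 1 h and at 333, 340 and 310 CPM at 24 h. Its libraries at 1 h were below all others in NT and those at 24 h above all others. The change was −0.60 ± 0.039 at 1 h (edgeR adjusted p = 5.20e-12) and 0.25 ± 0.039 at 24 h (1.06e-05). The call at 1 h stood just past the fold of 1.5, and with DESeq2 or without replicate 3 the fall was −0.58 and −0.57 and was not called. *Tyms*, thymidylate synthase, went the other way, from 107, 111 and 110 CPM at 0 h to 140, 140 and 144 CPM at 4 h, which do not overlap, a change of 0.38 that was 0.075 on TPM. At 24 h *Tyms* was 0.35 ± 0.037 higher, and 0.30 on TPM. *Tk1*, thymidine kinase, was at 108, 104 and 106 CPM at 0 h and 70.7, 72.5 and 73.1 CPM at 4 h. The fall of 0.55 ± 0.038 did not reach the fold under TMM, whereas on TPM the change at 4 h was −0.72, past the fold. *Rrm1* was lowest at 4 h, at −0.38.

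Of the 3 G1/S control genes *Ccne2* was called lower, while *Ccne1* and *E2f1* changed in both directions, below the fold under TMM. *Ccne2* (chr4:11191351-11204779), which encodes a cyclin E that activates CDK2, was at 93.7, 104 and 107 CPM at 0 h, at 60.2, 61.8 and 62.8 CPM at 1 h and at 106, 109 and 106 CPM at 24 h. The libraries at 1 h lay below all others in NT. The change was −0.72 ± 0.058 at 1 h (edgeR adjusted p = 2.39e-10) and 0.08 at 24 h. *Ccne1* fell by 0.36 at 1 h and by 0.53 at 2 h (−0.81 on TPM) and was 0.14 higher at 24 h (0.010 on TPM). *E2f1*, which encodes a transcription factor of this group, was 0.30 higher at 1 h (0.096 on TPM) and 0.34 lower at 4 h (−0.59 on TPM). Of the chromatin genes, *Uhrf1*, which brings maintenance methylation to new DNA, was at 252, 246 and 245 CPM at 0 h and 237, 227 and 236 CPM at 2 h, a change of −0.09 ± 0.036. *Chaf1a*, a subunit of the histone chaperone that loads new nucleosomes, was 0.27 lower at 2 h.

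**Figure D3:**
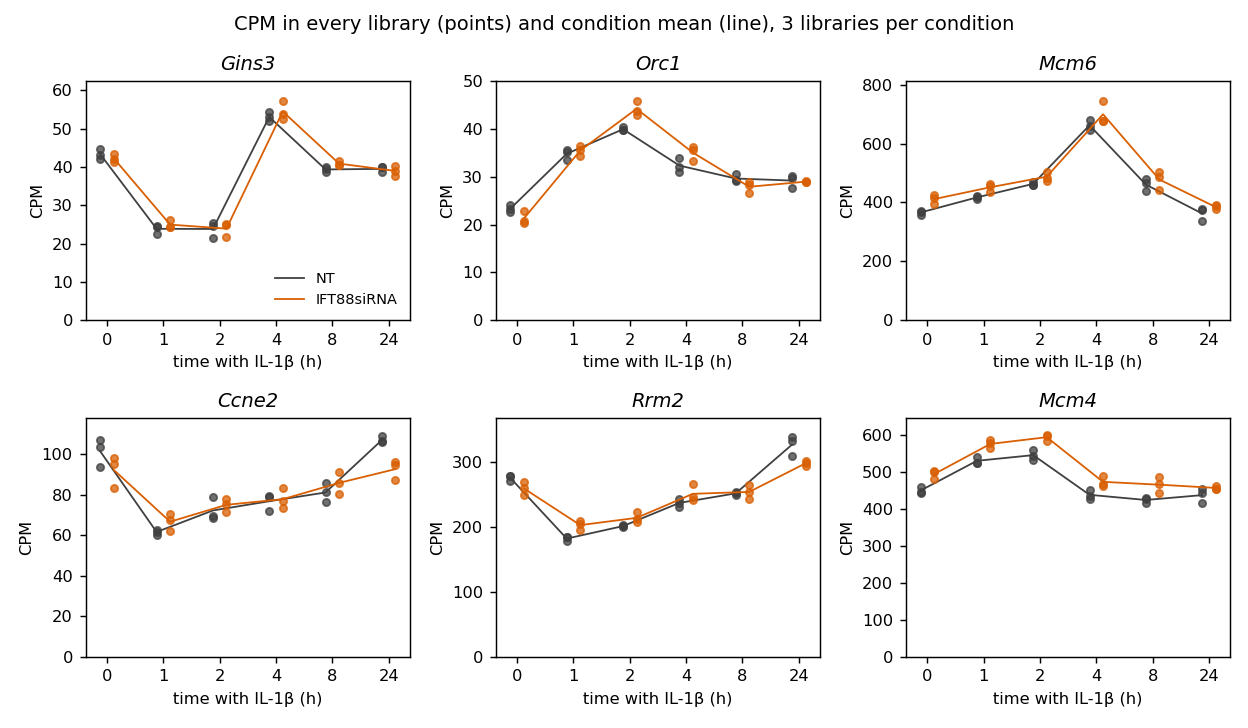
CPM of *Gins3*, *Orc1*, *Mcm6*, *Ccne2*, *Rrm2* and *Mcm4* in all 36 libraries (points) against time with IL-1β, with a line through the mean of the 3 libraries per condition for NT (grey) and IFT88siRNA (orange). *Gins3* is lowest at 1 and 2 h and highest at 4 h in both groups, *Mcm6* peaks at 4 h, and *Mcm4* lies higher in IFT88siRNA at 0, 1 and 2 h.

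In IFT88siRNA cells the same question gave 2 of 39 genes called at 1 h (beside 15.1% of all genes), 3 at 2 h (25.6%), 3 at 4 h (29.3%) and 0 at both 8 h (17.6%) and 24 h (14.2%). The counts of 0 at 8 and 24 h held with DESeq2. At these times 20 and 14 of the 39 genes had an unadjusted p under 0.05, beside 8634 and 7555 of all 16129 genes tested. Called were *Gins3* (lower at 1 and 2 h), *Orc1* (higher at 1, 2 and 4 h), *Mcm6* (higher at 4 h) and *Tk1* (lower at 2 and 4 h). Over time these 4 genes were called, beside 48.2% of all genes, and 36 of 39 passed the adjusted p alone, beside 86%. *Orc1* rose from 22.8, 20.4 and 20.7 CPM at 0 h to 43.8, 43.0 and 46.0 CPM at 2 h, a change of 1.05 ± 0.058 (edgeR adjusted p = 1.05e-13). *Mcm6* went from 424, 396 and 414 CPM to 677, 746 and 676 CPM at 4 h, a change of 0.77 ± 0.052 that the TPM values did not call. *Gins3* fell from 42.0, 41.2 and 43.5 CPM to 25.1, 21.7 and 24.9 CPM at 2 h and reached 52.4, 57.1 and 53.9 CPM at 4 h, so that the step from 2 to 4 h was 1.19 ± 0.059, beside 27.9% of all genes called in it. *Tk1* (chr11:117815526-117826092) fell from 106, 115 and 112 CPM to 72.7, 70.3 and 72.8 CPM at 4 h, a change of −0.62 ± 0.049, and was no longer called at any time without replicate 2. None of the libraries named here overlapped with those at 0 h.

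Other genes of the cell cycle were taken as lists to place these values, and these lists too were chosen with earlier results known. Of 44 other replication factors, 8 were called over time in NT, 7 lower and 1 higher (26.3% and 23.6% of all genes), with a median largest change of −0.29, beside −0.25 for the 39 genes and −0.21 for all genes. The 3 with the largest falls were *Dna2*, a nuclease of Okazaki fragment processing (−1.49), *Cdc7*, the kinase that fires origins (−1.14), and *Ticrr*, which helps to load CDC45 (−1.02), and the 1 that rose was *Timeless*, of the fork protection complex (0.73). Of 17 genes of E2F and RB control, 7 were called and all were lower, led by *E2f2* (−1.72), *Fbxo5*, an inhibitor of the APC/C (−1.16), and *Rbl2*, an RB-family repressor (−1.08). Of 20 mitosis genes, 17 were called and all were lower, beside the same 26.3%.

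The median fall of the mitosis genes was larger than that of the replication genes. *Cenpf*, a kinetochore protein, went from 127, 132 and 126 CPM at 0 h to 46.1, 48.8 and 44.6 CPM at 2 h (−1.47). *Aurka*, a spindle kinase, went from 74.3, 75.5 and 77.7 CPM to 31.3, 27.3 and 31.2 CPM (−1.34), and *Plk1*, a kinase of mitotic entry, from 118, 116 and 114 CPM to 59.3, 54.3 and 49.5 CPM (−1.10). None of these 3 overlapped with its 0 h libraries. The list median was −0.68 at 2 h and −0.62 at 4 h, beside −0.09 and −0.05 for the 39 replication genes, and 0.07 at 24 h, beside 0.01. Summed TPM over the mitosis list fell from 2801 to 2810 at 0 h to 1477 to 1518 at 2 h. Summed TPM over the replication genes went from 5302 to 5339 to 4433 to 4571. At 2 h the median of all genes itself shifted by −0.23 on TPM, beside −0.33 for the median replication gene. In bulk RNA, fewer cycling cells and less RNA of these genes per cell cannot be told apart.

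**Figure D4:**
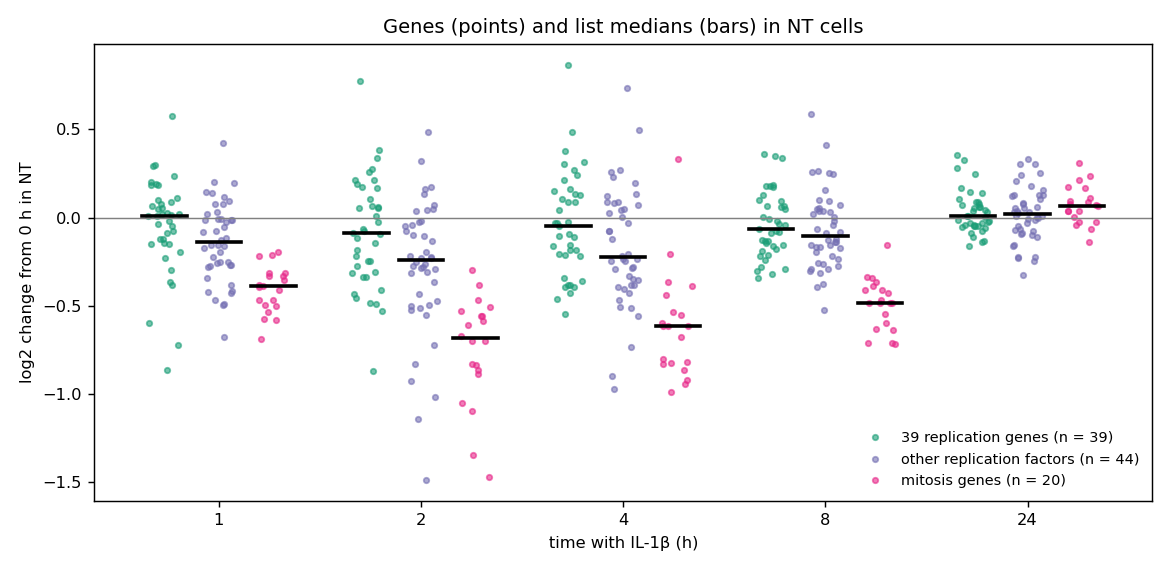
Log2 change from 0 h in NT at each time with IL-1β for the 39 replication genes, 44 other replication factors and 20 mitosis genes, with a point per gene and a bar at each list's median. The medians of the replication genes lie within 0.09 of 0 at every time, whereas those of the mitosis genes lie at −0.68 at 2 h and −0.62 at 4 h and at 0.07 at 24 h.

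The next comparison asked whether the replication genes differed between IFT88siRNA and NT at the same time point. With the fold of 1.5, none of the 39 was called at any of the 6 time points by edgeR or by DESeq2, beside 2.23% of all genes at 0 h, 2.66% at 1 h, 0.496% at 2 h, 0.432% at 4 h, 0.692% at 8 h and 1.15% at 24 h. From 0 to 24 h, an unadjusted p under 0.05 was found for 18, 14, 5, 5, 4 and 9 of the 39 genes. Of all genes tested, 4907 of 15274 had one at 0 h, 4800 of 14797 at 1 h and 2540 of 14728 at 2 h. At 4, 8 and 24 h the counts were 2643 of 14801, 3195 of 15165 and 3381 of 15223. The differences of single replication genes at 0 h ran from −0.14 to 0.17 and those at 24 h from −0.21 to 0.12 (log2). On adjusted p alone, 9 genes were higher at 0 h, beside 10.1% of all genes, namely *Mcm2*, *Mcm3*, *Mcm4*, *Mcm6*, *Mcm7*, *Gins2*, *Lig1*, *Chaf1a* and *E2f1*. At 1 h 10 genes passed, beside 19%, and 8 of them were higher, beside 8.75%. The 2 lower genes were *Pole* (−0.19) and *Tk1* (−0.15). At 2, 4 and 8 h none passed, beside 2.76%, 3.85% and 4.25%, and at 24 h *Ccne2* passed (−0.21 ± 0.048), beside 8.66%.

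Taken as the mean difference over the 6 time points in all 36 libraries, the differences were small and the MCM subunits were all on the higher side. None of the 39 genes reached the fold of 1.5 (1.93% of all genes did), in edgeR or in DESeq2. Of the 39, 22 had an unadjusted p under 0.05, beside 7948 of all 16710 genes tested. On adjusted p alone 20 genes passed, beside 39.7% of all genes, 17 higher (21.3%) and 3 lower (18.5%), and of the 17 *Pold1* was lower on TPM. All 6 MCM genes were among the higher, with differences of 0.06 to 0.12 on the log2 scale. Each had a higher mean in IFT88siRNA at 6 of 6 time points, as did *Pcna*, *Gins2*, *Rfc3*, *Rrm1*, *Rpa2*, *E2f1*, *Fen1* and *Lig1*. The share of all genes with such a run was not counted. *Mcm5*, the smallest MCM difference at 0.06 ± 0.017, lost the adjusted p without replicate 2 and on TPM. The other 5 MCM genes kept it in each alternative run on this mean. The 3 lower genes were *Pole*, the catalytic subunit of polymerase epsilon (−0.12 ± 0.026), *Mcm10* (−0.07 ± 0.019) and *Tyms* (−0.05 ± 0.016). None of the 4 licensing genes passed. Without replicate 2 the count of 20 was 13.

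The 3 genes with the smallest adjusted p were *Mcm4*, *Mcm2* and *Mcm7*. They were picked on these same libraries, so gaps between their siRNA groups add no further support. The share of all genes with such gaps was not counted. *Mcm4* (chr16:15623897-15637400) was at 447, 461 and 444 CPM in NT and 500, 481 and 503 CPM in IFT88siRNA at 0 h, at 525, 526 and 542 against 579, 564 and 587 CPM at 1 h, and at 534, 561 and 544 against 599, 602 and 584 CPM at 2 h. At 4 h it was at 453, 437 and 427 against 468, 490 and 464 CPM, at 8 h at 426, 418 and 431 against 469, 486 and 443 CPM, and at 24 h at 454, 444 and 417 against 463, 456 and 454 CPM. The siRNA groups did not overlap at 5 of 6 time points, the exception being 24 h. The mean difference was 0.11 ± 0.016, or 8.24% (edgeR adjusted p = 4.12e-07).

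*Mcm2* (chr6:88883474-88898780) was at 438, 422 and 427 CPM in NT and 465, 489 and 485 CPM in IFT88siRNA at 0 h, and at 493, 500 and 490 against 538, 552 and 541 CPM at 1 h. It was at 485, 507 and 481 against 528, 523 and 514 CPM at 2 h and at 423, 402 and 411 against 454, 466 and 427 CPM at 4 h. The groups did not overlap at these 4 time points. At 8 h it was at 458, 431 and 452 against 499, 488 and 454 CPM and at 24 h at 441, 419 and 407 against 432, 441 and 469 CPM, where the groups overlapped. The mean difference was 0.12 ± 0.017, or 8.39% (adjusted p = 1.07e-06).

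*Mcm7* (chr5:138164583-138172422) was at 308, 296 and 297 CPM in NT and 335, 327 and 332 CPM in IFT88siRNA at 0 h, and at 299, 302 and 312 against 331, 335 and 341 CPM at 1 h. It was at 282, 287 and 289 against 308, 304 and 307 CPM at 2 h and at 259, 250 and 260 against 276, 286 and 268 CPM at 4 h. The groups did not overlap at these 4 time points. At 8 h it was at 287, 287 and 302 against 309, 330 and 297 CPM and at 24 h at 329, 322 and 305 against 324, 327 and 335 CPM, with overlap. The mean difference was 0.11 ± 0.016, or 7.57% (adjusted p = 1.63e-06), and 12.6% of its exonic length is overlapped by other genes.

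Summed over the 6 MCM genes, NT was at 2111 ± 17.0 CPM (SD, n = 3) at 0 h and IFT88siRNA at 2330 ± 14.2 CPM. At 24 h the sums were 2145 ± 91.3 and 2241 ± 49.9 CPM, with libraries of 2047 to 2228 against 2209 to 2299 CPM, which overlap. The depth of the libraries moved with the siRNA group too, and its part in these differences was not tested. On TPM the median of the 6 mean differences was 0.07, beside −0.03 for all genes. Among other genes, 14 of 44 other replication factors were higher in the mean difference and 8 lower on adjusted p. The counts were 4 and 4 of 17 E2F and RB control genes, and 1 and 5 of 20 mitosis genes. Of all genes tested, 21.3% were higher and 18.5% lower.

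**Figure D5:**
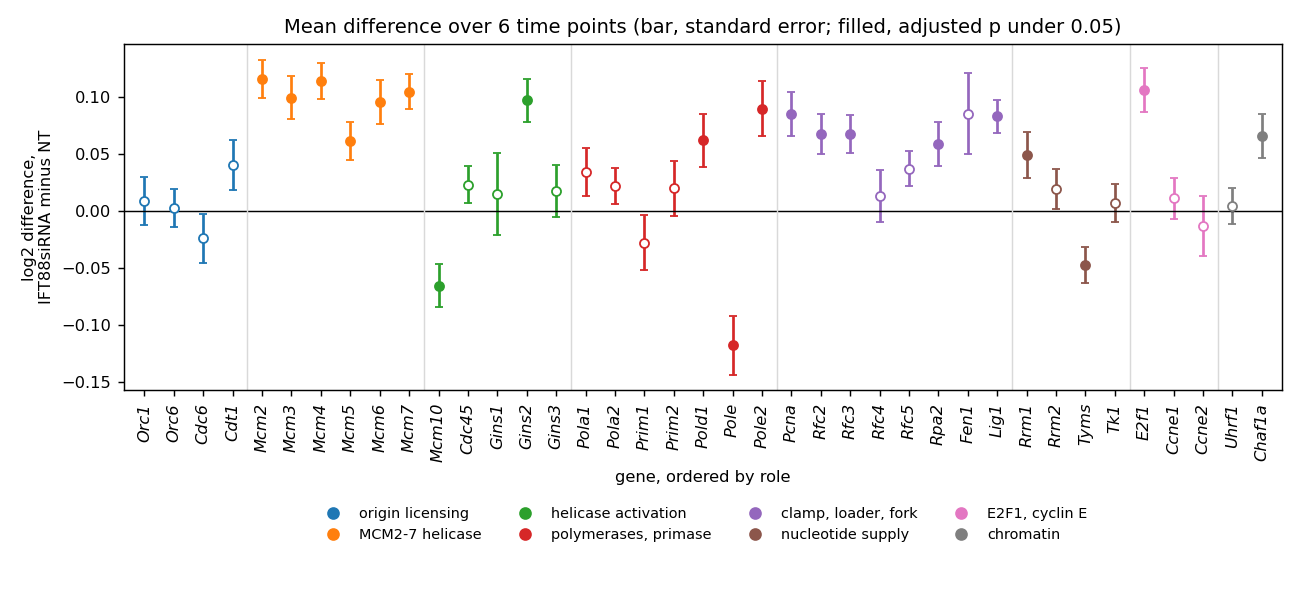
Mean log2 difference between IFT88siRNA and NT over 6 time points for the 39 genes, ordered and coloured by role, with bars for the standard error and filled points for an adjusted p under 0.05. The 6 MCM genes are all filled and lie between 0.06 and 0.12, the 4 licensing genes are open, and *Pole* is lowest at −0.12.

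The last comparison asked whether the change with IL-1β differed between the siRNA groups. None of the 39 genes passed with the fold of 1.5 in edgeR or in DESeq2, beside 1.2% of all genes. Of the 39, 6 had an unadjusted p under 0.05, beside 2808 of all 16710 genes tested. On adjusted p alone *Rrm2* and *Tk1* passed, beside 5.53% of all genes. Both differed most at 1 h, where they passed too, beside 2.37%. *Rrm2* fell less in IFT88siRNA, where it was at 270, 249 and 261 CPM at 0 h and 210, 196 and 204 CPM at 1 h, and the difference in the change was 0.24 ± 0.060 (edgeR adjusted p = 0.00586 over time). *Tk1* fell more, from 106, 115 and 112 CPM at 0 h to 82.6, 86.2 and 90.9 CPM at 1 h, against 108, 104 and 106 to 94.3, 96.3 and 96.2 CPM in NT, and the difference was −0.21 ± 0.058 (adjusted p = 0.0277). Neither passed when any 1 of the 3 replicates was left out. *Orc1* rose 0.28 ± 0.074 more in IFT88siRNA at 2 h, which passed at that time alone (adjusted p = 0.0482, beside 1.24% of all genes) but not over the time points together (adjusted p = 0.0533).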

How the data were processed

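The authors aligned paired-end reads of poly(A) RNA to GRCm38 with HISAT2 2.1.0 and an Ensembl annotation, and deposited whole-number counts of reads per gene from featureCounts (Subread 1.6.3, default settings, which ignore strand). Gene-level TPM, made with Salmon 0.9.1 and its GC bias correction, was deposited beside the counts. Tool versions are those of the submitters' processing notes. Columns of all 36 libraries were matched to the sample labels by name, and 0 columns had no sample. Counts per library were 19337022 to 38304127, which limits counting error alone, as there were no molecular identifiers.

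The members and the other gene lists were chosen with earlier results of these data known. Tests on counts used edgeR 4.0.16 under R 4.3.3 (TMM scaling, filterByExpr, quasi-likelihood F-tests, two-sided, Benjamini-Hochberg adjustment over all genes tested). A gene was called with an adjusted p under 0.05 and a fold over 1.5, at any time point where time points were tested together. In such joint tests the change given is the largest in size. Fits used 18 libraries of 1 siRNA group over time, 6 libraries at 1 time point, or all 36 for the mean difference and the difference in response. The SE is the absolute log2 change divided by the square root of F. CPM was scaled with TMM over all 36 libraries.

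Values in every library are given for the most abundant member of each role, for the member of each role with the largest change among those called in NT, and for the 3 members with the smallest adjusted p between siRNA groups where none was called. Of other lists, the 3 genes with the largest change among those called are named. Values of *Tk1* and of marker genes were added after values were seen.

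Alternatives were DESeq2 1.42.0, its size factors, upper-quartile scaling, no filter, no fold threshold, the replicate number as a block, leaving out each replicate, 1 model of all libraries, and limma 3.58.1 on log2(TPM + 1) or log2(TPM + 0.1) of genes with a TPM of at least 1 in 3 libraries. Leaving out 0 h or 8 h from the mean difference was added after seeing the data. The steps were tested on simulated data. Gene positions came from GENCODE and promoter windows from RefSeq (GRCm38.p6). Plots came from matplotlib 3.10.9 (Python 3.11.15).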

Additional observations from a re-analysis of the deposited data

Results flagged for a closer look

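*Rrm2* and *Tk1* are listed because the change with IL-1β was tested for a difference between the siRNA groups (the interaction of siRNA and time in edgeR) and passed the adjusted p of 0.05. For *Rrm2* the largest difference in the log2 change from 0 h, IFT88siRNA minus NT, was 0.24 at 1 h (adjusted p = 0.00586 over time). It was 0.21 to 0.27 when 1 replicate was left out and passed in none of these 3 fits. For *Tk1* the difference was −0.21 at 1 h (edgeR adjusted p = 0.0277 over time), and it was −0.23 to −0.16 with 1 replicate left out, again past the threshold in none of the 3. *Tk1* also missed the threshold with no filter on low counts and on TPM, whereas *Rrm2* kept it under both. The conditions have 3 libraries each, so single outlying libraries were not tested for.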

How the results depend on the processing

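Counts below are of the 39 replication genes. Without the fold of 1.5, 20, 29, 29, 23 and 10 genes were called from 1 to 24 h in NT and 38 over time, and 19, 28, 24, 15, 8 and 36 in IFT88siRNA. Between siRNA groups the same rule gave 9 at 0 h, 10 at 1 h, 1 at 24 h, 20 for the mean and 2 for the response. With upper-quartile scaling 5 were called at 2 h and 2 at 4 h in NT (in place of 2 and 1), and 5 at 4 h in IFT88siRNA (in place of 3). On log2(TPM + 1) NT had 9 at 2 h, 7 at 4 h and 14 over time (10, 7 and 15 with a pseudocount of 0.1), and IFT88siRNA 8, 6 and 14 with either pseudocount. Of all genes called over time in NT, 47.3% were higher on counts, 38.9% with upper-quartile scaling and 34.3% on log2(TPM + 1). For the response on adjusted p alone, DESeq2 passed 5 genes (*Ccne2*, *Orc1*, *Rrm2*, *Tk1* and *Tyms*) and TPM 1 (*Rrm2*) with either pseudocount. The cause of these shifts was not tested.

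Leaving out 1 replicate left 4 to 5 genes called over time in NT and 3 to 4 in IFT88siRNA. For the mean siRNA difference on adjusted p alone it left 13 (without replicate 2) to 16 of 20 genes, and for the response 0 in all 3 fits. In these fits there are fewer libraries per condition. *Pold1*, 0.06 higher in the mean siRNA difference, was at −0.034 on TPM with either pseudocount. The call of *Rrm2* at 1 h in NT was lost with DESeq2 size factors (−0.58) too. *Orc1* in IFT88siRNA was not called on TPM at 1 h (0.56 on log2(TPM + 1)) or at 4 h (0.40), and *Tk1* at 2 h (−0.59) not with DESeq2 (−0.58).

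Same-numbered libraries of the siRNA groups did not pair: 8 of 18 correlations of their deviations were over 0.1, from −0.32 to 0.53. With the replicate number as a block (replicate block), 5 genes were called over time in NT and 4 in IFT88siRNA, as without it, and the mean siRNA difference and the response gave 21 and 3 genes on adjusted p alone in place of 20 and 2. In all, 223 of 262 recomputed counts stayed within 1.5 times the value in the report. A count of 0 that stayed at 0 is among the 223, so the total does not measure the counts above 0 alone. With 3 libraries per condition, differences near the SE of a single comparison (about 0.04 to 0.06 log2) were not detectable.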
